A study of Mus musculus with 4 samples.

Results

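The genes described are 10 channels, channel gates and calcium-release receptors of lymphocytes: the potassium channels Kcnk1, Kcna3 and Kcnn4, the plasma membrane calcium channel subunits Orai1 and Orai2, the calcium sensors Stim1 and Stim2, the store release channel Itpr1, and the cation channels Trpv2 and Trpm7. They were found by symbol among 22865 genes of a read count table, and all 10 were present. They were chosen by function, with the Aire-/- to Aire+/+ differences of these same libraries already known. That of Kcnk1 in particular had been seen, so differences of the 10 genes are described below without a p-value for any of them, and counts of genes past a threshold are given only beside the same count over all genes.

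The libraries came from γδ T cells of the lung, sorted from 10-week-old female C57Bl/6 mice as viable cells positive for CD45 and the γδ receptor and negative for TCRβ, CD27 and the Vγ chains that the labels number 1, 2, 4 and 5. There were 2 libraries from Aire-/- mice, which lack the thymic regulator Aire, and 2 from Aire+/+ mice, each prepared from 500 cells with Smart-Seq2, which copies whole transcripts into cDNA from small numbers of cells. The submitters call the cells Tgd17, the γδ T cells that make interleukin-17. The labels do not say whether libraries of a genotype came from separate animals, so the spread between them may be technical.

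In T cells, receptor signalling makes inositol trisphosphate, which opens inositol trisphosphate receptors and releases calcium from the endoplasmic reticulum. STIM proteins in that membrane sense the loss and open ORAI pores in the plasma membrane, and the calcium that enters activates calcineurin, which sends NFAT factors to the nucleus. Potassium leaving through voltage-gated, calcium-gated and leak channels keeps the membrane potential negative, which sustains the inward pull on calcium.

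Library totals were 1106891 to 1144060 counts in Aire-/- and 1153344 to 1265239 counts in Aire+/+ libraries. Il17a had 217 to 237 counts in Aire-/- and 177 to 224 in Aire+/+ libraries, and all 6 markers listed for interleukin-17 γδ T cells were counted in every library. The sorted cells were not pure T cells by their transcripts. The 9 B cell markers, all counted in every library, summed to 2969 and 2160 counts in Aire-/- and 5127 and 3056 counts in Aire+/+ libraries. The 10 macrophage markers summed to 48 and 89 counts in Aire-/- libraries, against 277 and 62 counts in Aire+/+ libraries, and 3 of them were at 0 in at least 1 library. Epithelial markers summed to 5 counts in each Aire-/- library and to 18 and 9 counts in the Aire+/+ libraries, and no listed marker was at 0 everywhere. Natural killer cell markers summed to 19 and 36 counts for the Aire-/- pair, against 20 and 27 for the Aire+/+ pair. Endothelial markers summed to 125 and 115 for the Aire-/- pair, against 174 and 175 for the Aire+/+ pair. Most of this was Pecam1, with 124 and 110 for the Aire-/- pair, against 171 and 146 for the Aire+/+ pair. Cdh5 had 0 to 6 counts per library and Kdr 1 to 23, the 23 being those of Aire+/+ replicate 2. Whether the Pecam1 counts came from endothelial cells was not tested. B cells and myeloid cells carry several of these channels too, and fewer cells of a type cannot be told apart from less RNA per cell in such bulk libraries.

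Of the 10 genes, 6 (Kcnk1, Trpv2, Trpm7, Itpr1, Orai2 and Stim1) were well covered, with 96 counts or more in every library, and 4 were scarce, with Stim2, Orai1, Kcna3 and Kcnn4 at 30 counts or fewer in every library. Kcnk1 had the largest difference between genotypes among the well-covered genes, and most of it lay in 1 Aire-/- library. None of the 9 that could be tested passed the test between genotypes.

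**Figure D1:**
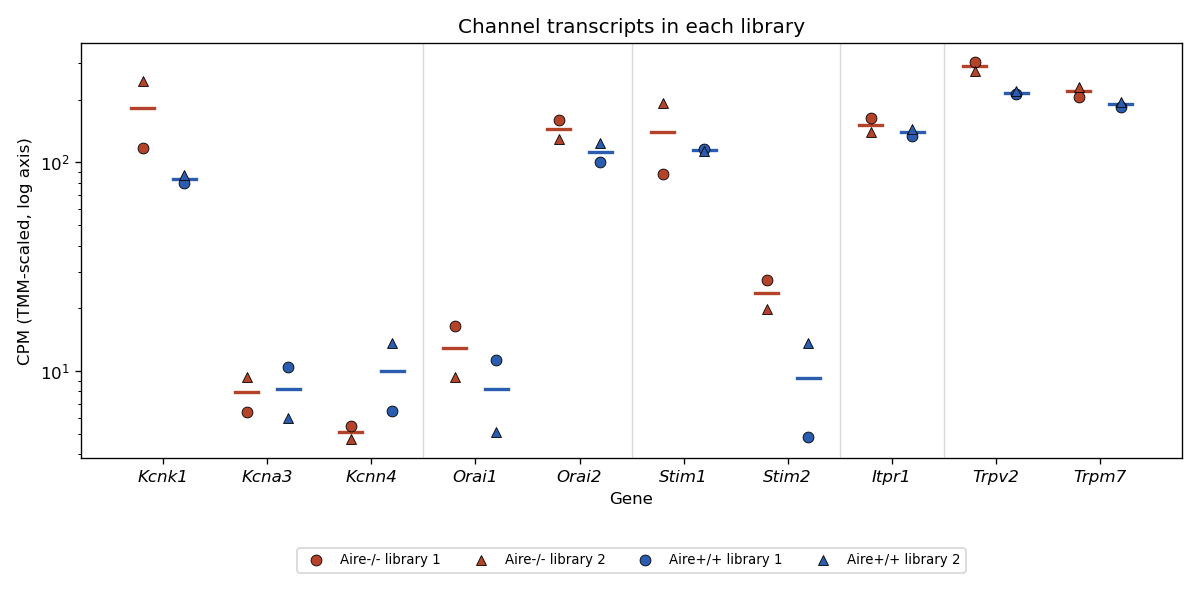
Library-scaled counts (CPM, with TMM factors, log axis) of the 10 genes in each library, Aire-/- left of Aire+/+ for each gene. Points are single libraries and bars are means of 2 libraries. Kcnk1 and Stim1 were highest in Aire-/- library 2, while Kcna3, Kcnn4, Orai1 and Stim2 lay under 30 CPM in every library.

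Kcnk1 (ENSMUSG00000033998, chromosome 8, 125995170 to 126030685, GRCm38) encodes TWIK-1, a tandem-pore potassium channel whose background conductance is small at the surface of most cells. It had 129 and 260 counts in the Aire-/- libraries and 99 and 102 counts in the Aire+/+ libraries. The genotypes did not overlap, the Aire-/- pair being higher, but Aire-/- replicate 2 stood apart, at 2.08 times the CPM of Aire-/- replicate 1. The Aire+/+ libraries differed by 1.09 times only. The Aire-/- libraries averaged 181 ± 90.0 CPM and the Aire+/+ libraries 83.6 ± 5.14 CPM (± SD, n = 2 per genotype), CPM being the count scaled to a common library size, and the log2 fold change from the edgeR fit was 1.12 (SE 0.31). Across the 4 pairings of an Aire-/- with an Aire+/+ library the log2 ratio ran from 0.43 to 1.62. Without Aire-/- replicate 2 the fitted log2 fold change was 0.49, and without Aire-/- replicate 1 it was 1.56. In the annotation an exon of the antisense gene Gm45875 overlaps Kcnk1, and reads of the pair cannot be told apart without strand.

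Kcna3 (ENSMUSG00000047959, chromosome 3, 107036169 to 107038070) encodes Kv1.3, the voltage-gated channel best known for setting the membrane potential of human effector memory T cells. It was scarce, with 7 and 10 counts in Aire-/- and 13 and 7 counts in Aire+/+ libraries. The genotypes overlapped, and the log2 fold change was -0.07 with an SE of 0.71. Its annotated model spans 1902 bases in a single exon, so reads from longer untranslated ends are not covered by it.

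Kcnn4 (ENSMUSG00000054342, chromosome 7, 24370263 to 24386690) encodes KCa3.1, the channel that calcium itself opens in activated lymphocytes. It had 6 and 5 counts in Aire-/- and 8 and 16 counts in Aire+/+ libraries. Both Aire-/- values lay below both Aire+/+ values, yet the ratio of summed counts, scaled to library size, was 0.512, and its exact 95% interval, which allows for counting error alone, was 0.226 to 1.08. It was the 1 gene of the set that did not pass the filter on low counts and was not tested.

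The ORAI subunits form the pore that STIM opens. Orai1 (ENSMUSG00000049686, chromosome 5, 123015074 to 123030456), the main pore subunit of store-operated entry in T cells, had 18 and 10 counts in Aire-/- and 14 and 6 counts in Aire+/+ libraries. The genotypes overlapped, and the log2 fold change of 0.64 was smaller than its SE of 0.66. An exon of the antisense gene Gm2479 overlaps it in the annotation. Orai2 (ENSMUSG00000039747, chromosome 5, 136147459 to 136170713), a subunit that joins ORAI1 in mixed pores and tempers their current in mouse T cells, had 174 and 137 counts in Aire-/- and 124 and 145 counts in Aire+/+ libraries. In CPM the pairs did not overlap. The Aire-/- libraries averaged 144 ± 21.0 CPM and the Aire+/+ libraries 112 ± 16.9 CPM (± SD, n = 2 per genotype), a log2 fold change of 0.36 with an SE of 0.24. The nearest pairing of libraries differed by 0.06 on the log2 scale.

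The sensors differed from each other in abundance. Stim1 (ENSMUSG00000030987, chromosome 7, 102267806 to 102437319), the sensor that couples store depletion to ORAI1, had 96 and 204 counts in Aire-/- and 143 and 132 counts in Aire+/+ libraries. The Aire-/- libraries lay on either side of the Aire+/+ pair, with the same library, Aire-/- replicate 2, high for Stim1 and for Kcnk1. The log2 fold change was 0.29 (SE 0.31) over all 4 libraries and -0.38 without Aire-/- replicate 2. Stim2 (ENSMUSG00000039156, chromosome 5, 53998499 to 54121057), a sensor that responds to smaller falls in store calcium, had 30 and 21 counts in Aire-/- and 6 and 16 counts in Aire+/+ libraries. The genotypes did not overlap. The Aire-/- libraries averaged 23.6 ± 5.37 CPM and the Aire+/+ libraries 9.27 ± 6.25 CPM (± SD, n = 2 per genotype). Its log2 fold change of 1.35 (SE 0.57) was the largest of the set, from few counts, and ran from 0.77 without Aire+/+ replicate 1 to 2.25 without Aire+/+ replicate 2. The ratio of summed counts was 2.59, and its exact 95% interval for counting error was 1.54 to 4.48.

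Itpr1 (ENSMUSG00000030102, chromosome 6, 108213096 to 108551109) encodes a receptor through which inositol trisphosphate empties the endoplasmic reticulum store. It had 178 and 148 counts in Aire-/- and 166 and 170 counts in Aire+/+ libraries, the genotypes overlapped, and the log2 fold change was 0.11 (SE 0.22). Exons of the antisense genes Gm44040 and Gm44101 overlap it in the annotation.

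The TRP channels were the steadiest genes of the set. Trpv2 (ENSMUSG00000018507, chromosome 11, 62574486 to 62600515), a calcium-permeable cation channel abundant in leukocytes, had 332 and 292 counts in Aire-/- and 263 and 257 counts in Aire+/+ libraries. The genotypes did not overlap, with averages of 289 ± 19.7 CPM over the Aire-/- and 216 ± 5.21 CPM over the Aire+/+ libraries (± SD, n = 2 per genotype) and a log2 fold change of 0.42 (SE 0.20). Each of the 4 pairings of libraries gave a log2 ratio between 0.32 and 0.51. Trpm7 (ENSMUSG00000027365, chromosome 2, 126791565 to 126876230), a channel for magnesium and calcium fused to a kinase domain, had 226 and 245 counts in Aire-/- and 229 and 228 counts in Aire+/+ libraries. Its CPM were 219 ± 17.4 in Aire-/- and 190 ± 7.09 in Aire+/+ libraries, which did not overlap, with a log2 fold change of 0.20 (SE 0.20).

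The quasi-likelihood test of edgeR called 0 of the 9 genes it covered at an adjusted p under 0.05, against 0.0204% of all 9783 genes in the fit. At an unadjusted p under 0.05 it counted 2, both higher in Aire-/- libraries, against 2.80% of all genes on the higher side and 5.57% on either side. DESeq2's Wald test called 0 (0.0307% of all genes) and counted 1 at an unadjusted p under 0.05 (2.32% of all genes). Limma-voom called 0 (0.0102%) and counted 3 at that level (5.09%). Once all genes with a count entered the edgeR fit, 1 of the 10 genes was called, against 0.230% of 20402 genes. Log2 fold changes lay above 0 for 8 of the 9 genes, with a median of 0.36, while 50.9% of all genes tested lay above 0 with a median of 0.01. In CPM, 5 of all 10 genes lay wholly higher in the Aire-/- pair, 1 lay wholly lower and 4 overlapped. Of all genes tested 17.1% lay wholly above and 17.3% wholly below. The genes were picked with this contrast known, so these shares describe them and carry no further weight. In CPM the B cell markers summed to 2712 and 2037 in the Aire-/- and to 4143 and 2615 in the Aire+/+ libraries, so the genotypes overlapped and Aire+/+ replicate 1 stood highest. The part of B cell RNA in the channel differences was not tested.

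The sum of the CD3 chains Cd3d, Cd3e and Cd3g, which every T cell needs for its receptor, served as a measure of T cell RNA. It was 1010 and 1087 counts in Aire-/- and 833 and 1283 counts in Aire+/+ libraries, so the Aire+/+ libraries held both the lowest and the highest sum. Summed counts of the B cell markers Ms4a1, Cd79a and Cd79b were 1.48 and 0.999 times the CD3 sum in Aire-/- and 3.10 and 1.22 times in Aire+/+ libraries. Scaling to CD3 moved the median log2 fold change of all tested genes by -0.21, to -0.20, and only 30.0% of genes then lay above 0. It also widened the errors, with an SE of 0.52 for most of the well-covered channels in the fit scaled to CD3.

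Per 1000 CD3 counts, Kcnk1 stood at 128 and 239 in Aire-/- and at 119 and 79.5 in Aire+/+ libraries. The genotypes still did not overlap, but Aire-/- replicate 1 and Aire+/+ replicate 1 were nearly equal. The fitted log2 fold change per CD3 count was 0.89 (SE 0.53), which is 1.09 above the median of all genes on that scale. Stim2 stood at 29.7 and 19.3 per 1000 CD3 counts in Aire-/- and at 7.20 and 12.5 in Aire+/+ libraries, again without overlap (log2 fold change 1.27, SE 0.69). Kcnn4 stood at 5.94 and 4.60 in Aire-/- and at 9.60 and 12.5 in Aire+/+ libraries, with both Aire-/- values lower.

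The other 7 genes overlapped between genotypes on this scale. Trpv2 stood at 329 and 269 per 1000 CD3 counts in Aire-/- and at 316 and 200.3 in Aire+/+ libraries, so the separation seen in CPM was not kept. Orai2 stood at 172 and 126 in Aire-/- and at 149 and 113 in Aire+/+ libraries. Trpm7 stood at 224 and 225 in Aire-/- and at 275 and 178 in Aire+/+ libraries, with means of 225 ± 1.15 for Aire-/- and 226 ± 68.7 for Aire+/+ (± SD, n = 2 per genotype) and a fitted log2 fold change of -0.01. Stim1 and Itpr1 had fitted log2 fold changes per CD3 count of 0.05 and -0.08, and Orai1 and Kcna3 of 0.39 and -0.32. In all, 2 of the 10 genes lay wholly above and 1 wholly below per CD3 count, against 6.18% and 16.8% of all genes tested. In this fit 0 of the 9 tested genes were called (0.0409% of all genes) and 0 had an unadjusted p under 0.05 (2.31% of all genes).

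**Figure D2:**
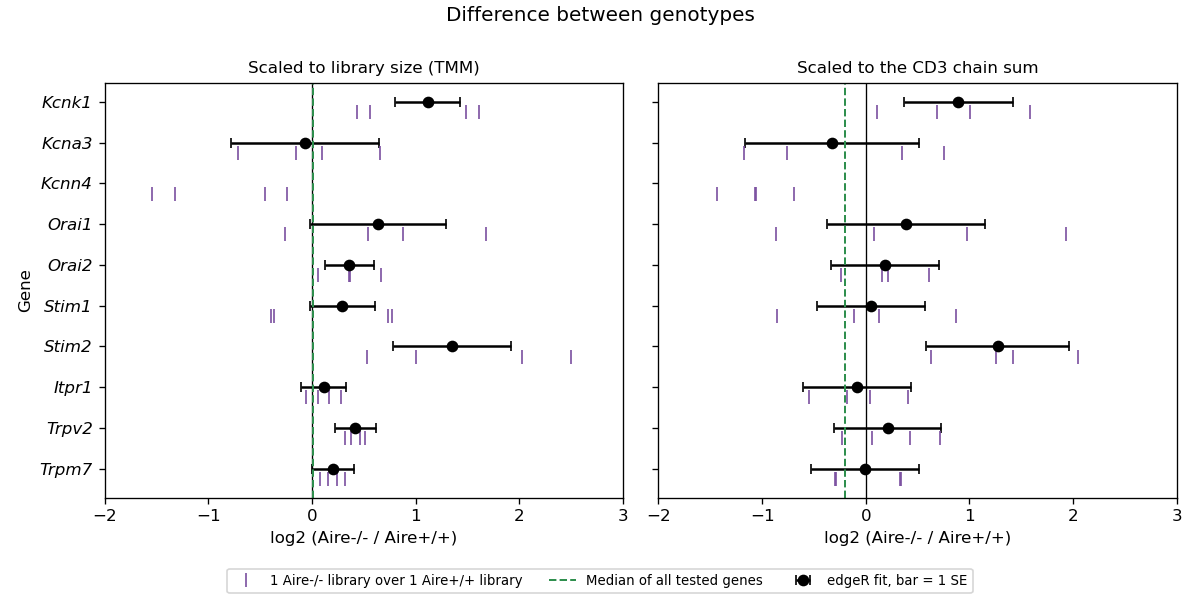
Log2 ratio of Aire-/- over Aire+/+ for each gene, with counts scaled to library size (left) or to the CD3 chain sum (right). Black points are edgeR fits with 1 SE, ticks are the 4 pairings of single libraries, and the dashed line is the median of all tested genes, at 0.01 on the left and -0.20 on the right. Kcnk1 and Stim2 kept all ticks above 0 under both scalings, and Kcnn4, which has no fit, kept all below 0.

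Levels were compared between genes as CPM per kb of the longest annotated transcript. Trpv2 averaged 78.8 ± 5.37 CPM per kb in Aire-/- and 58.9 ± 1.42 in Aire+/+ libraries, and Kcnk1 81.2 ± 40.3 in Aire-/- and 37.4 ± 2.30 in Aire+/+ libraries (± SD, n = 2 per genotype). Trpv2 was the higher of this pair in 3 of the 4 libraries, and Kcnk1 in Aire-/- replicate 2, at 109.7 against 75.0 CPM per kb. Averaged over all libraries both lay above 95% of the 20151 detected genes with a length, at percentiles of 96.3 for Trpv2 and 95.5 for Kcnk1.

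Orai2, Stim1 and Trpm7 followed, at percentiles of 91.1, 90.2 and 90.0, and their order changed between libraries. Orai2 averaged 36.1 ± 5.27 CPM per kb in Aire-/- and 28.1 ± 4.23 in Aire+/+ libraries, Stim1 stood at 20.1 and 44.1 in the Aire-/- libraries and at 26.5 and 25.9 in the Aire+/+ libraries, and Trpm7 averaged 30.8 ± 2.45 in Aire-/- and 26.7 ± 1.00 in Aire+/+ libraries. Itpr1 lay below all of these in every library, at 15.3 ± 1.65 CPM per kb in Aire-/- and 14.2 ± 0.81 in Aire+/+ libraries.

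Orai1, Kcna3, Stim2 and Kcnn4 made up the low end and overlapped one another. Orai1 averaged 6.90 ± 2.64 CPM per kb in Aire-/- and 4.39 ± 2.33 in Aire+/+ libraries, and Kcna3 4.16 ± 1.13 in Aire-/- and 4.34 ± 1.68 in Aire+/+ libraries. Stim2 averaged 4.78 ± 1.09 in Aire-/- and 1.88 ± 1.27 in Aire+/+ libraries, and Kcnn4 1.40 ± 0.15 in Aire-/- and 2.77 ± 1.40 in Aire+/+ libraries. The highest of the 10 genes was 33.0 times the lowest. The order rests on the transcript model. With the union of exons Kcnk1 stood at 59.3 and Trpv2 at 56.4 CPM per kb, and with the median transcript length, which short fragments pull down, Trpm7 (182) and Itpr1 (155) came out highest.

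**Figure D3:**
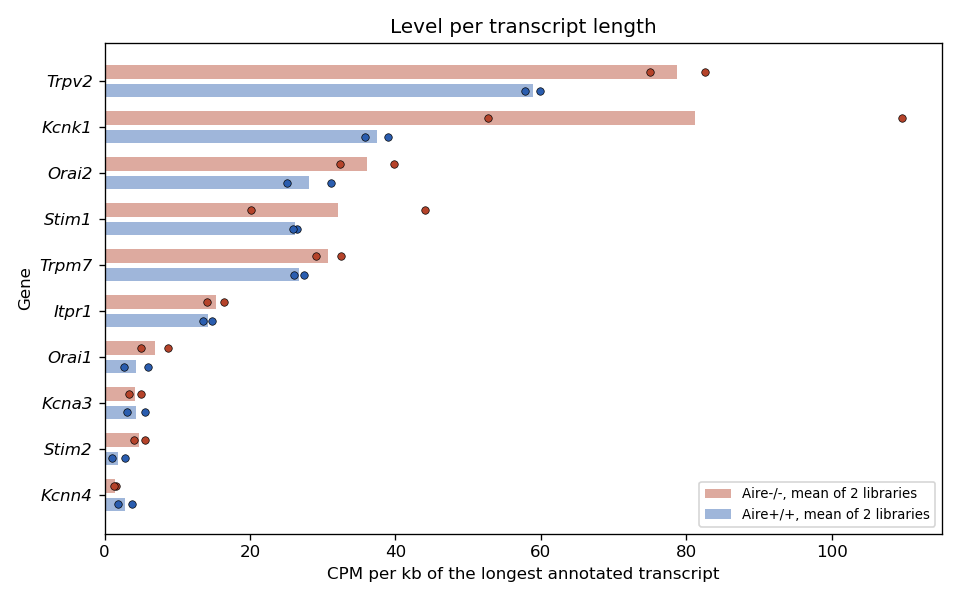
CPM per kb of the longest annotated transcript for the 10 genes, ordered by the mean of all 4 libraries. Bars are means of 2 libraries, Aire-/- above Aire+/+, and points are single libraries. Trpv2 and Kcnk1 lead, and Orai1, Kcna3, Stim2 and Kcnn4 stay under 10 CPM per kb in every library.

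Within its family, Kcnk1 was the most abundant of 77 potassium channel pore genes per length, with 38.3% and 62.5% of their summed level in Aire-/- and 32.4% and 32.1% in Aire+/+ libraries. Kcna3 held 2.44% and 2.83% in Aire-/-, against 5.00% and 2.59% in Aire+/+ libraries, and Kcnn4 1.10% and 0.739% in Aire-/-, against 1.61% and 3.09% in Aire+/+ libraries. Among the ORAI subunits, Orai2 held 62.7% and 46.8% of the level per length in Aire-/- and 43.9% and 50.6% in Aire+/+ libraries. Orai3, the other pore subunit, held 23.5% and 45.9% in Aire-/- and 45.5% and 44.9% in Aire+/+ libraries. Orai1 was the smallest in every library, with 13.8% and 7.28% in Aire-/- and 10.5% and 4.46% in Aire+/+ libraries.

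Stim1 held 78.3% and 91.7% of the STIM level per length in Aire-/- and 96.4% and 90.3% in Aire+/+ libraries. It thus exceeded Stim2 in every library. Of the inositol trisphosphate receptors, Itpr1 held 37.8% and 39.4% of the level per length in Aire-/- and 31.1% and 38.9% in Aire+/+ libraries. Itpr2 held 26.9% and 29.0% in Aire-/- and 25.8% and 23.8% in Aire+/+ libraries. The share of Itpr3 was 35.2% and 31.6% in Aire-/- and 43.2% and 37.2% in Aire+/+ libraries.

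Shares within the STIM and ORAI families overlapped between genotypes, as did that of Itpr1. Those of Kcnk1 and Itpr2 were higher, and those of Kcnn4 and Itpr3 lower, in both Aire-/- libraries than in both Aire+/+ libraries. Shares are relative, so a higher share of a gene lowers those of the rest of its family. In CPM per kb Itpr2 stood at 11.7 and 10.4 in Aire-/- and 11.3 and 9.01 in Aire+/+ libraries, which overlapped. Itpr3 overlapped too, at 15.3 and 11.3 in Aire-/- and 18.9 and 14.1 in Aire+/+ libraries. Of the 77 potassium pore genes, 7.79% had shares wholly above and 16.9% wholly below in the Aire-/- pair. These shares depend on the transcript model, which here was the longest transcript. Averaged over all libraries, Itpr1 held 58.3% and Itpr3 10.8% of the receptor level with median transcript lengths, but 25.7% and 47.3% with the union of exons, so their order turned. Orai3 passed Orai2 with the union of exons, at 49.1% and 41.7%. Kcnk1 stayed the most abundant potassium pore gene under both, at 36.4% with median lengths and 43.3% with the union of exons.

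**Figure D4:**
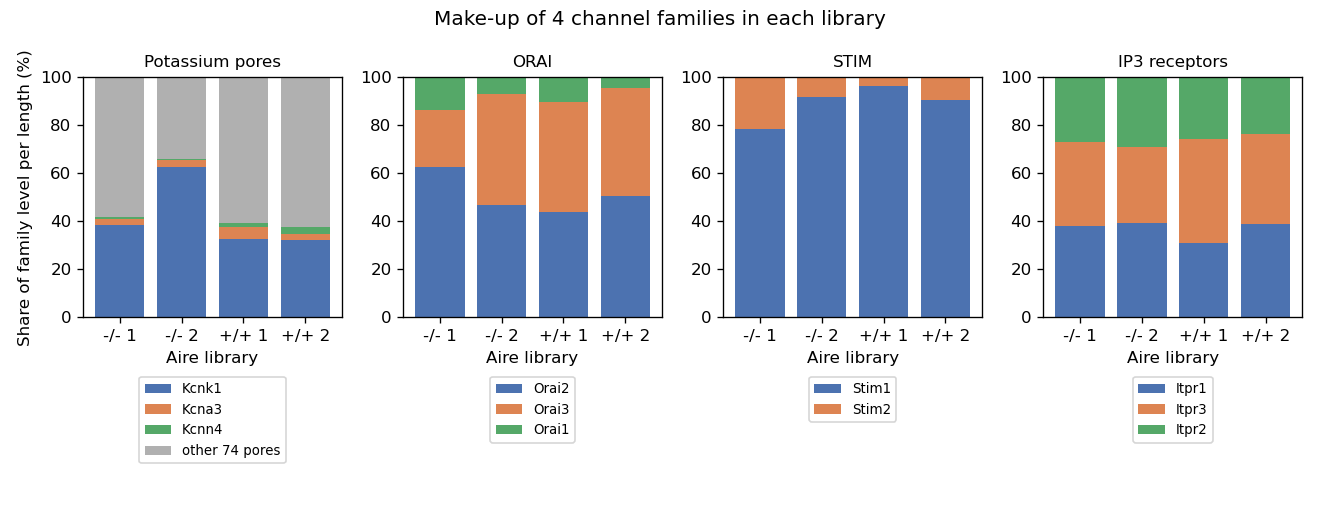
Share (%) of the summed CPM per kb (longest transcript) of a family held by each gene in each library, Aire-/- libraries left of Aire+/+ libraries, for potassium channel pores, ORAI subunits, STIM sensors and inositol trisphosphate (IP3) receptors. Kcnk1 takes 32.1% to 62.5% of the potassium pores, while Orai1 is the smallest ORAI subunit and Stim1 the larger STIM gene in all 4 libraries.

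The rest of the potassium channel family was thinly covered. Of 85 further family genes, 9 had no count in any library, 3 had at least 20 counts in every library, and 9 were tested. Of these 9, edgeR called 0 at an adjusted p under 0.05 and counted 0 at an unadjusted p under 0.05, as did DESeq2 and limma-voom, and 6 had log2 fold changes above 0 with a median of 0.14 (50.9% and 0.01 over all genes tested). The most abundant per length were Kcnab2, a cytosolic subunit of voltage-gated channels, with 77.9 ± 4.81 CPM for Aire-/- against 67.9 ± 6.86 CPM for Aire+/+, and the tandem-pore channels Kcnk5, at 37.5 ± 9.00 CPM for Aire-/- against 31.4 ± 13.6 CPM for Aire+/+, and Kcnk7, at 10.7 ± 3.52 CPM for Aire-/- against 10.5 ± 5.71 CPM for Aire+/+ (± SD, n = 2 per genotype). The smallest p among them belonged to Kcnj5, an inward rectifier, at 1.14 on the log2 scale (SE 0.66; edgeR adjusted p = 0.931). Kcnj5 had 17 and 11 counts in Aire-/- and 7 and 7 counts in Aire+/+ libraries, so it passed the filter through the Aire-/- pair alone. Kcnc1 had a log2 fold change of 0.56 and Kcnk6 one of -0.21.

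Calcium channels and transporters outside the set were better represented, with 33 of 87 genes tested and 9 at 0 in every library. The test called 0 of the 33, and 3 had an unadjusted p under 0.05 by edgeR (1 by DESeq2, 2 by limma-voom), with 18 above 0 and a median log2 fold change of 0.02. Over all genes tested those shares were 5.57% by edgeR, 2.32% by DESeq2 and 5.09% by limma-voom, with 50.9% above 0. Most abundant per length were Tmem66, now named Saraf, an inhibitor of STIM-gated entry, with 416 ± 45.5 CPM for Aire-/- against 384 ± 17.9 CPM for Aire+/+, and the calcium pumps Atp2a3 (470 ± 8.62 CPM for Aire-/- against 462 ± 105 CPM for Aire+/+) and Atp2b1 (521 ± 35.4 CPM for Aire-/- against 471 ± 32.5 CPM for Aire+/+). Atp2a3 refills the endoplasmic reticulum and Atp2b1 extrudes calcium from the cell, and their log2 fold changes were 0.02 and 0.15. Cacna1s, a voltage-gated calcium channel of skeletal muscle, had 10 and 12 counts in Aire-/- and 2 and 1 counts in Aire+/+ libraries (2.93 on the log2 scale, SE 0.97; edgeR adjusted p = 0.835). Mcu, the mitochondrial calcium uniporter, had 11 and 16 counts in Aire-/- and 5 and 5 counts in Aire+/+ libraries (1.57, adjusted p = 0.896, edgeR). On the lower side, the oxidant-sensitive channel Trpm2 had 2 and 5 counts in Aire-/- and 13 and 14 counts in Aire+/+ libraries (-1.75, adjusted p = 0.889, edgeR), and the T-type channel gene Cacna1i had a log2 fold change of -0.89. Cacna1s, Mcu and Trpm2 were the 3 genes under 0.05 by edgeR. Each reached 10 counts only in the genotype where it was higher. They passed the filter through that genotype alone, so their differences describe them and carry no further weight.

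Downstream of calcium entry, 20 of 21 genes of the calmodulin, calcineurin and NFAT branch were tested. The test called 0 and 0 had an unadjusted p under 0.05 by edgeR, DESeq2 or limma-voom, with 10 genes above 0, 10 below and a median log2 fold change of 0.01. Among the most abundant per length was the calmodulin gene Calm2, at 338 ± 38.4 CPM for Aire-/- against 382 ± 32.7 CPM for Aire+/+ (log2 fold change -0.18). Camk4, a calmodulin-dependent kinase of T cells, averaged 213 ± 33.3 CPM for Aire-/- against 170 ± 25.1 CPM for Aire+/+ (0.33, adjusted p = 0.937, edgeR). Itpkb, a kinase that consumes inositol trisphosphate, had a log2 fold change of 0.69, and Plcg2, the phospholipase C that B cells and myeloid cells use, one of -0.59 with 47 and 42 counts in Aire-/- and 102 and 49 counts in Aire+/+ libraries. The library with the most Plcg2 counts also had the highest sums of B cell and of macrophage markers. The part of such cells in the Plcg2 difference was not tested.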

How the data were processed

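The authors deposited raw read counts, whole numbers for each gene symbol and library, per the file headers. Per the submitters' processing notes TopHat2 2.0.10, Cufflinks 2.2.1 and the build mm10 are named, their roles not being stated there. The counting tool, its annotation and its use of strand are not given in the sources used. Libraries of the same genotype differed by more than sampling noise (chi-square over degrees of freedom 4.10 for Aire-/-, 4.00 for Aire+/+). Pairs of libraries across genotypes gave 3.72 to 5.66, a range that holds both of those values.

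All 4 libraries were fitted on genotype alone with edgeR 4.0.16 (R 4.3.3; TMM, filterByExpr with a minimum count of 10 and total of 15, quasi-likelihood test, Benjamini-Hochberg), which left 9783 of 22865 genes. CPM were taken over the counts of tested genes and scaled by TMM factors. The SE is the log2 fold change over the square root of F. The alternatives used DESeq2 1.42.0 and limma 3.58.1 among others. The edgeR, DESeq2 and limma-voom fits at their main settings were tested on simulated data, and the other alternatives and measures were not. Lengths came from GENCODE M21 (GRCm38), matched for 22516 symbols, and newer symbols from RefSeq.

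The members and lists were chosen with earlier results of these data known. Named genes outside the set are the 2 with the smallest p in each direction and the 3 most abundant per length of each list, of which some are not reported here. Figures were drawn with matplotlib 3.10.9 in Python 3.11.15.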

Additional observations from a re-analysis of the deposited data

How the results depend on the processing

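At the depth of these libraries, genes of a few counts such as Kcnn4 fell below the filter, and 2 libraries a genotype limit the rest. Against 2 genes called over the whole table, limma-voom called 1, the fit without a filter 47, the fit scaled to CD3 4 and the fit with the replicate number as a block 6, and leaving out 1 library gave 12 to 63. Of the channel set, 0 genes were called in the fits on all 4 libraries, except that without a filter. That fit called 1, against 0.230% of all genes. The channel count also did not stay at 0 in every fit that left out 1 library. Of the wider potassium family 0 were called in the fits on all 4 libraries, against 1 without a filter. That count did not stay at 0 in every fit with 1 library left out. Those fits tested 11 to 17 of the family's genes, against 9 in the main fit. The wider calcium genes and the calcineurin and NFAT branch stayed at 0 under every alternative run. The labels do not say whether same-numbered libraries were handled together. Their deviations from the genotype means correlated at -0.077 over genes, which cannot settle it, and with the block 0 of the channel set were called. The median log2 change of the 10 genes per CD3 count was 0.10, and -0.33 to 0.47 with 1 library left out. Over the 9758 tested genes without a count of 0, the median of this measure in all 4 libraries was -0.17. The median level of the set was 21.8 CPM per kb, 49.9 with median transcript lengths and 10.1 with the union of exons. Of 116 alternative fold changes of the tested members, 6 moved by more than the replicate SD and 5 changed sign, those of Kcna3 (without Aire-/- replicate 1 or Aire+/+ replicate 1), Stim1 (without Aire-/- replicate 2), and Trpm7 and Itpr1 (scaled to CD3). The cause of these moves was not tested. A fit with a lone library takes its spread from the other genotype.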

Other observations

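Kcnj8, which encodes a pore subunit of potassium channels closed by ATP, was picked after its values were seen. It had 0 and 1 counts in the Aire-/- libraries and 38 and 9 counts in the Aire+/+ libraries, and did not pass the filter on low counts. The ratio of summed counts, scaled to library size, was 0.0238 in Aire-/- over Aire+/+, and its exact 95% interval, for counting error alone, was 0.000589 to 0.139. It was the 1 gene of the wider potassium family called by edgeR in the fit without a filter (adjusted p = 0.000333). Because the gene was picked for its values, that adjusted p describes it and carries no further weight. In edgeR fits that left out 1 library, Kcnj8 passed the filter only while Aire+/+ replicate 1, with 38 counts, was kept. It did not pass the filter once Aire+/+ replicate 1 was omitted. Most of its counts came from Aire+/+ replicate 1, the library that also had the highest sums of B cell (5127 counts) and macrophage (277 counts) markers, and their part in this difference was not tested.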
